A study of Mus musculus with 30 samples.

Results

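Cells that had spent 3 days in SFEB culture and were sorted as Sox1-negative (labelled SFEB Day3 Sox1 (-)) were compared with undifferentiated mouse embryonic stem (ES) cells (Mouse ES 1 to 3). All samples came from Sox1-GFP ES cells of 129 origin, a line in which a fluorescent reporter reads out Sox1, a transcription factor of the early neural plate. SFEB is a culture of floating aggregates without serum, in a medium with Knockout Serum Replacement, in which ES cells go on to neural progenitors. The day 3 Sox1-negative cells are those that had not switched on the reporter by that day; the ES cells were sorted as E-cadherin-positive. PolyA RNA of the sorted cells was labelled with biotin and read on 3 Affymetrix arrays per sample, U74Av2, U74Bv2 and U74Cv2. These hold different probe sets, and some genes have probe sets on more than 1 of them. The other groups used below for comparison are SFEB cells of day 1, of day 2 sorted as E-cadherin-positive or E-cadherin-negative, and of days 3, 4 and 5 sorted as Sox1-positive, with 1 sample each. The day 3 Sox1-negative group is 1 sample of the 10 in the series, on 3 of its 30 arrays, and it was set against 3 ES samples on 9 arrays. Nothing in the labels says that the ES samples came from separate cultures, so their spread may be technical. Days in culture, aggregation in the differentiation medium and the sort gate all differ between the 2 groups and cannot be told apart here.

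Mouse ES cells in maintenance culture resemble the naive epiblast of the preimplantation blastocyst. Their state rests on transcription factors such as Esrrb, Klf4, Tfcp2l1 and Tbx3, which cytokine signalling from LIF through STAT3 helps to keep on. As the embryo implants, the epiblast passes through a formative state to a primed one: it keeps Pou5f1 and Sox2, loses much of the naive network and gains Fgf5, Otx2, Dnmt3b and other genes. Commitment to the neural plate, marked by Sox1, follows from there.

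Expression was read as array intensity, and differences were taken on the log2(intensity + 16) scale between the day 3 Sox1-negative sample and the mean of the 3 ES arrays. Since the group has 1 sample, each gene was first set against the range of the ES arrays: it was called higher if it lay at least 1 log2 unit above the highest ES array, and lower if it lay at least 1 unit below the lowest. Of 12941 genes, 121 were higher by this rule, which is 0.935% of those tested, and 180 were lower, which is 1.39%. The median difference over all genes was 0.01. The plot of all genes shows the called genes on both sides of the diagonal, with Pou5f1 close to it. A test with limma, in which the 1 day 3 sample is assumed to vary like the ES samples, called no probe set at an adjusted p under 0.05: 0 were higher and 0 lower of 25690, while 784 and 925 had an unadjusted p under 0.05. The smallest adjusted p was 0.0535. The values below are therefore positions relative to the ES arrays, and no single gene passed that test.

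**Figure D1:**
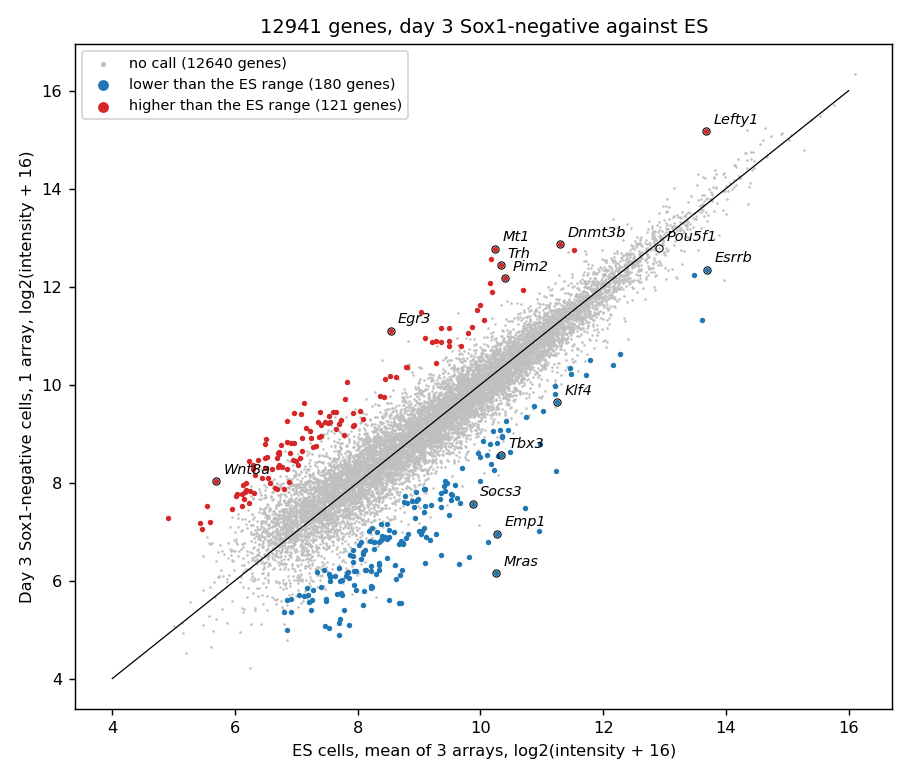
Each point is 1 of 12941 genes, with the mean log2(intensity + 16) of the 3 ES arrays on the x axis and the value of the day 3 Sox1-negative array on the y axis; the line marks equal values. The 121 genes in red lie at least 1 log2 unit above the highest ES array and the 180 in blue at least 1 unit below the lowest; 14 genes are named, among them Pou5f1 near the line.

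The 12 arrays were on 1 scale, with median intensities from 176 to 253. Correlation of log2 values over the probe sets of a chip was 0.846 to 0.974 between ES arrays and 0.854 to 0.952 between the day 3 Sox1-negative array and an ES array. The ratio of 3′ to 5′ signal for beta-actin, a measure of RNA integrity, was 0.939 to 1.14 in the day 3 Sox1-negative sample and 0.996 to 1.85 in the ES samples. ES 1 stood apart from ES 2 and ES 3: it lay at least 1 log2 unit outside both other ES arrays for 517 genes, against 180 for ES 2 and 347 for ES 3. Without ES 1 the counts beyond the range were 258 higher and 366 lower, and limma, with 1 residual degree of freedom, called 41 probe sets higher and 75 lower. Among the genes called lower in that fit were Mras, Emp1 and Socs3, and among those called higher were Wnt8a, Trh, Mt1 and Fos. Acta2, Tagln and Gbx2 were also called lower in it, and these were low in ES 1 as well. Of the naive network list only Gbx2 was called there, and of the epiblast list only Wnt8a. Esrrb, Klf4, Klf5, Tbx3, Tfcp2l1, Zfp42 and Fbxo15 were not. The summed intensity of the 10 tested fibroblast and feeder genes was lowest in ES 1; it ran from 5381 to 9626 over the ES arrays and was 5474 in the day 3 Sox1-negative cells, in which none of the 10 was past the margin. The part of such cells in the differences was not tested.

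The genes behind the sort gates were read first. Sox1 gave 173, 156 and 138 in ES 1, 2 and 3 and 241 in the day 3 Sox1-negative cells, 0.45 log2 units above the highest ES array. It gave 308 in the day 3 Sox1-positive cells, so its 1 probe set barely separated the sorts made on the reporter. Cdh1, which encodes E-cadherin, gave 722, 557 and 451 in the ES arrays and 593 in the day 3 Sox1-negative cells, within the ES range. Pou5f1, the central pluripotency factor, gave 7572, 8778 and 6836 against 7075, also within the range, while a dimmer probe set gave 543, 672 and 736 against 469, below it. The day 3 Sox1-positive cells had 3139 for Pou5f1, below all ES arrays. The sorted population thus carried ES-like intensities of Pou5f1 and Cdh1 by the probe sets used in the counts; in sorted bulk RNA, fewer cells of a type and less RNA per cell cannot be told apart.

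Core pluripotency genes lay within 1 log2 unit of the ES range. Of 20 listed genes 19 were tested, and none lay 1 log2 unit outside the ES range on either side; the list median was -0.12, against 0.01 for all genes. Sox2, the partner of Pou5f1, gave 6956, 5333 and 6499 in the ES arrays and 6619.6 in the day 3 Sox1-negative cells. Sall4, a zinc finger factor of the same network, gave 3066, 3357 and 2759 against 3264, and Utf1, a chromatin-bound factor of pluripotent cells, gave 5192, 7489 and 4886 against 5597. All 3 lay inside the range of the ES arrays, as did 8 of the 19 genes; 8 were below every ES array and 3 above, by less than the margin. The same 3 genes gave 4972, 2611 and 579 in the day 3 Sox1-positive cells. Dppa5a, an RNA-binding protein of pluripotent cells, was at 7003, 8895 and 9527 in ES cells and at 11861 here, 0.32 above the highest array. Dppa2, a chromatin factor, was at 4782, 5147 and 4077 and 3064, 0.41 below the lowest array. Summed intensity over the 19 genes was 114361 in the day 3 Sox1-negative cells and 114138 to 165245 in ES cells.

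The naive network was split. Of 20 listed genes 18 were tested, 7 were called lower and none higher, and the list median was -1.03; the share of all genes called lower was 1.39%. The 7 were Esrrb, Klf4, Klf5, Tbx3, Tfcp2l1, Zfp42 and Fbxo15. In the plot of the naive and primed lists all 7 lie between the lowest ES array and the day 3 Sox1-positive sample, with Klf4 nearest to the latter. Without ES 1 the count was 8, and with quantile normalisation it was 4, with Esrrb, Zfp42 and Fbxo15 no longer past the margin. Esrrb and Tfcp2l1 also missed it when all probe sets of a gene were averaged.

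Esrrb, an orphan nuclear receptor that binds many pluripotency genes, gave 12861, 10661 and 16886 in ES 1, 2 and 3 and 5190.4 in the day 3 Sox1-negative cells, a difference of -1.35 ± 0.44 (limma SE). It was at 68.2 in the Sox1-positive cells of the same day. A second Esrrb probe set, with ES values of 517, 233 and 257 and a day 3 value of 206, lay only just below the range. Tbx3, a T-box factor of the naive state, gave 1105, 1107 and 1694 against 362, a difference of -1.77 ± 0.44. Its other probe set gave 309, 198 and 338 against 108, also below every ES array. Tfcp2l1, a target of STAT3 that can maintain self-renewal, gave 1250.3, 1261 and 1683 against 523, but a weaker probe set gave 329.8, 127 and 138 against 207, inside the range.

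The Krüppel-like factors differed among themselves. Klf4, which binds with Pou5f1 and Sox2 at naive enhancers, gave 3339, 1854 and 2289.6 in the ES arrays and 784 in the day 3 Sox1-negative cells. Klf5, which overlaps with Klf4 in function, gave 1684, 1824 and 2125 against 738. Klf2, of the same subfamily, gave 609, 305 and 526 against 705 and lay above the ES range by 0.21. Klf4 and Klf5 were thus below every ES array while Klf2 was above every one.

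Zfp42 (Rex1), a reporter gene of the naive state, gave 4338, 3049 and 3243 in ES cells and 1439.5 here. Fbxo15, a target of Pou5f1 and Sox2, gave 3216, 2938 and 2383 against 1167 and lay 1.02 below the lowest ES array, just past the margin. Rhox5, a homeobox gene on the X chromosome, gave 2238, 3236 and 2211 against 1160.1 and fell just short of the margin at 0.92. Nanog, whose product gates the exit from the naive state, gave 10939.6, 5465 and 6292 against 6849, within the range, although a weaker probe set gave 628, 559 and 568 against 337. Nr0b1 (Dax1), a nuclear receptor of the network, gave 2807, 2227 and 2217 against 2329. Nanog and Nr0b1 therefore stood at ES levels in cells whose Esrrb, Klf4 and Tbx3 did not. Gbx2, another STAT3 target, gave 233, 2296 and 2727 in the ES arrays and 207 here, so the ES arrays themselves disagreed on it. Of the 18 tested genes, 12 lay below every ES array by some distance, as did 26.1% of all genes; 5 were inside the range and Klf2 was above it.

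**Figure D2:**
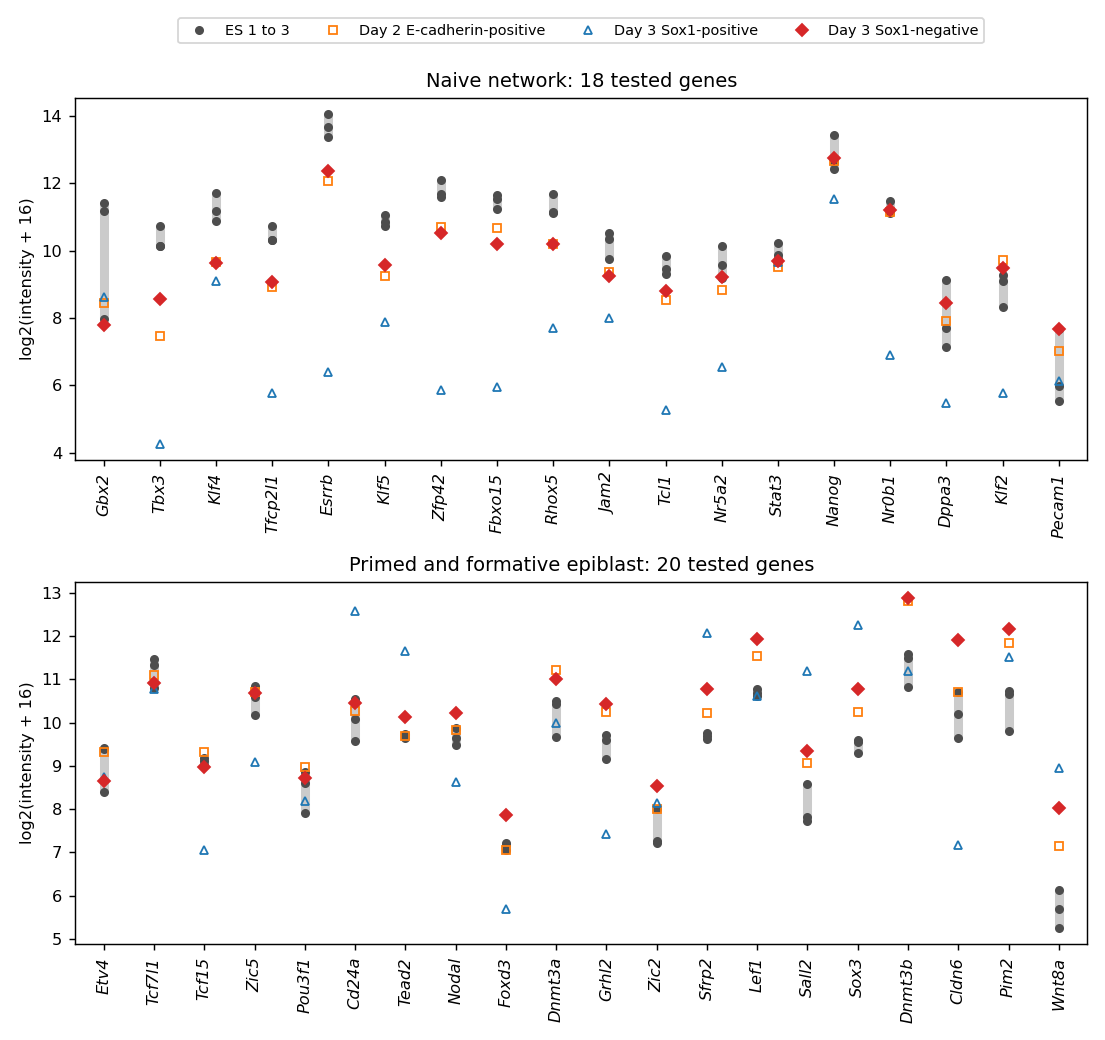
Genes of the naive network list (upper panel) and of the primed and formative epiblast list (lower panel) are ordered by their difference from ES cells, with log2(intensity + 16) on the y axis. Grey dots and bars are the 3 ES arrays and their range, red diamonds the day 3 Sox1-negative sample, orange squares the day 2 E-cadherin-positive sample and blue triangles the day 3 Sox1-positive sample; 7 naive genes lie at least 1 unit below the ES range and 7 epiblast genes at least 1 unit above it.

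Genes of the primed and formative epiblast went the other way. Of 22 listed genes 20 were tested, 7 were called higher and none lower, against 0.935% of all genes, and the list median was 0.87. The 7 were Dnmt3b, Sox3, Lef1, Cldn6, Pim2, Wnt8a and Sfrp2. In all, 14 of the 20 lay above every ES array by some distance, as did 27.4% of all genes; 5 were inside the range and 1, Tcf15, was below it. Without ES 1 the count called higher was 8. Summed intensity of the 20 genes was 36592 here and 14939 to 20944 in ES cells.

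Dnmt3b, a de novo DNA methyltransferase of the postimplantation epiblast, gave 1804, 3075 and 2841 in ES 1, 2 and 3 and 7483 in the day 3 Sox1-negative cells, a difference of 1.57 ± 0.39 (limma SE). Another probe set of the gene gave 1600.3, 3376 and 2825 against 4242, above the range by a smaller step, and the mean of the probe sets did not pass the margin. In the day 3 Sox1-positive cells Dnmt3b was at 2306, inside the ES range. Pim2, a serine/threonine kinase, gave 878, 1612 and 1684 against 4595, a difference of 1.77 ± 0.42. Lef1, a nuclear partner of beta-catenin, gave 1638, 1729 and 1559 against 3896, and both of its other tested probe sets were also more than 1 unit above the range. In the Sox1-positive cells Lef1 stood at 1548, near the lowest ES array, and Pim2 at 2898. Dnmt3b, Lef1 and Pim2 were thus all higher in the Sox1-negative than in the Sox1-positive sample of day 3. They stood at 7129, 2936 and 3651 in the day 2 E-cadherin-positive cells, also above every ES array. Pim2 was at 3423 in the day 2 E-cadherin-negative cells. The high intensity of these genes was therefore not particular to the Sox1-negative sort.

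Cldn6, a tight junction claudin of early epithelia, gave 787, 1659 and 1166 in ES cells and 3794 here. Its other probe set gave 293, 306 and 246 against 1054. The Sox1-positive cells had 129, below every ES array. Wnt8a, a Wnt ligand of the posterior epiblast, was dim in ES cells at 22.3, 35.4 and 54.7 and reached 246, a difference of 2.34 ± 0.38. Sfrp2, a secreted binder of Wnt ligands, gave 855, 806 and 765 against 1750.1, just past the margin at 1.02, and missed it with a pseudocount of 64. Sox3, a SoxB1 factor shared by epiblast and neural plate, gave 611, 729.9 and 764 against 1742; of its 4 tested probe sets, 2 were more than 1 unit above the range, 1 was above it by less and 1 lay within it. Wnt8a, Sfrp2 and Sox3 were higher still in the Sox1-positive cells, at 481, 4282 and 4838, so these 3 do not mark the Sox1-negative cells alone.

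Fgf5, the textbook gene of the primed epiblast, did not pass the filter on low intensity over the 10 arrays and entered no count. Its probe set gave 19.1, 24.2 and 12.5 in the ES arrays and 183 in the day 3 Sox1-negative cells. It gave 227 in the day 2 E-cadherin-positive cells, 88.8 at day 1 and 9.70 in the day 3 Sox1-positive cells. Over the 10 samples the 3 highest values came from day 1, the day 2 E-cadherin-positive sort and the day 3 Sox1-negative sort. Otx2 was not analysed here. Among other listed genes, Dnmt3a, the second de novo methyltransferase, averaged 1191 ± 340.3 (SD, n = 3) in ES cells and gave 2025 here, 0.51 above the highest array. That probe set is of the _r type; of its 2 other tested probe sets, 1 gave 999.6, 1114 and 813 against 1235, above the range, and the other gave 701, 959 and 1226 against 1097, inside it. Sall2 and Zic2, zinc finger factors, gave 195, 211 and 369 against 629 and 242, 133 and 137 against 357, also above the range by less than the margin. Grhl2, an activator of epithelial genes, gave 559, 819 and 758 against 1361, 0.72 above. Pou3f1 (Oct6), a POU factor of the epiblast, gave 223, 451 and 372 against 406, and Zic5, a zinc finger factor, gave 1137, 1521 and 1823 against 1627, both within the range. The list as a whole was therefore not uniform, with Pou3f1, Zic5, Cd24a, Etv4 and Tcf7l1 inside the ES range. For Etv4, an ETS factor downstream of FGF signalling, another tested probe set gave 604, 382 and 345 against 146, which is 1.15 below the lowest ES array.

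Promoters of the called genes were read from RefSeq (GRCm38.p6) over the 250 bases upstream of the start site and searched on both strands for the octamer ATGCAAAT, the core site of POU factors, and for TTCNNNGAA, the spaced palindrome bound by STAT factors. The octamer was found in 1.61% and the STAT palindrome in 7.18% of 27025 promoters. Of the 7 epiblast genes called higher, 5 had a promoter used here, and 2 of these held an octamer: Pim2 (plus strand, chrX:7878056-7878305), with 2 matches, and Sfrp2 (plus strand, chr3:83766071-83766320). The octamer was also in the windows of Zfp42 and Hs3st3b1, which were called lower, so it was not limited to genes called higher. Pim2 and Sfrp2 are shown because they are epiblast genes above the ES range; capitals mark the octamer in either orientation.
Pim2: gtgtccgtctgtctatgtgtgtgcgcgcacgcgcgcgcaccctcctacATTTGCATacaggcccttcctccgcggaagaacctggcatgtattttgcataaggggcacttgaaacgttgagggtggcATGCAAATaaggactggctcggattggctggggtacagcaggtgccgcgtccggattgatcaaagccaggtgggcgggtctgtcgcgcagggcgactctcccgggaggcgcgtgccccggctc
Sfrp2: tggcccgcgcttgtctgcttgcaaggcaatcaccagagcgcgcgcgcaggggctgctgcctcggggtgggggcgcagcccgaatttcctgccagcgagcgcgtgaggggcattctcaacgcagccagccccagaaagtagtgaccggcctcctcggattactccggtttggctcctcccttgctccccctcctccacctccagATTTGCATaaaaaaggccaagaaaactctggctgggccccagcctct
The first match begins 202 bases before the start site in Pim2 and 47 bases before it in Sfrp2. These matches describe sequence, and binding was not measured.

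Among genes of DNA methylation and demethylation, 13 of 16 listed were tested and 1, Dnmt3b, was called higher, against 0.935% of all genes. None was called lower, and the median was within 0.01 of 0. Dnmt3l, the catalytically inactive partner of the de novo enzymes, gave 8769.6, 11553 and 9655 in ES cells and 5663 in the day 3 Sox1-negative cells, 0.63 below the lowest array. Tet1, which oxidises methylcytosine, gave 5651, 7490.1 and 9280.2 against 3897, 0.53 below, while another tested probe set gave 188, 142 and 119 against 263, above every ES array. Tet2, its relative of the naive state, gave 1212, 1345 and 1571 against 614 and missed the margin at 0.96. Dnmt1, the maintenance methyltransferase, gave 4005, 3493 and 3280.2 against 3616, inside the range. Dnmt3b thus lay above all ES arrays, Dnmt3l and Tet2 below all of them and Dnmt1 among them, while the probe sets of Tet1 and Dnmt3a were divided.

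Several targets of LIF and STAT3 lay below the ES arrays. Of 18 listed genes 17 were tested, 5 were called lower, against 1.39% of all genes, and none higher, with a median of -0.38. The 5 were Socs3, Klf4, Icam1, Tfcp2l1 and Lifr; Klf4 and Tfcp2l1 are also naive network genes, and Icam1 and Lifr are named here after their values were seen. Socs3, the feedback inhibitor that STAT3 induces, gave 646, 825 and 1479.8 in the ES arrays and 174 in the day 3 Sox1-negative cells, a difference of -2.31 ± 0.46 (limma SE). Its other probe sets gave 663, 878 and 877 against 25.4, and 556, 651 and 369 against 184. All 3 probe sets of Socs3 were below every ES array, 2 of them past the margin. Lifr, the receptor subunit that binds LIF, gave 446, 440.1 and 411 against 176, while its 2 other tested probe sets were less than 0.3 log2 units from the ES mean. Icam1, an adhesion molecule, gave 683, 499.6 and 435 against 169. Bcl3, a further gene of the list, also named after its values were seen, was not called. Its probe set in the counts gave 595, 531 and 467 against 370, below the range by less than the margin. Its other tested probe set gave 1054, 1105 and 1088.5 against 77.7, which is 3.51 below the lowest array.

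For the transducers the probe sets did not all give the same picture. The Stat3 probe set used in the counts gave 1183, 844 and 919 in ES cells and 804 here, 0.07 below the lowest array. Another gave 741, 750.1 and 813 against 320.3, which is 1.17 below the lowest array, and a further one gave 292, 692 and 753 against 548, inside the range. Jak1, the kinase of the receptor complex, gave 636, 1075 and 922 against 877, within the range. Il6st (gp130), the shared receptor subunit, gave 814, 724 and 569 against 958, 0.23 above the highest array. Zfp36, an RNA-binding immediate early protein that the list also holds, gave 429, 379.8 and 238 against 779, 0.84 above.

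The STAT palindrome lay in the promoters of Socs3 (minus strand, chr11:117969367-117969616) and Esrrb (plus strand, chr12:86360867-86361116), which are shown because 1 is the feedback gene of the pathway and the other a naive factor, both called lower. Of the 7 naive genes called lower, 4 had a promoter used here and 1 of these, Esrrb, held the palindrome. Emp1, also called lower but in neither the naive nor the LIF and STAT3 list, held 2 matches. The palindrome was thus not limited to genes of these lists, and capitals mark it below.
Socs3: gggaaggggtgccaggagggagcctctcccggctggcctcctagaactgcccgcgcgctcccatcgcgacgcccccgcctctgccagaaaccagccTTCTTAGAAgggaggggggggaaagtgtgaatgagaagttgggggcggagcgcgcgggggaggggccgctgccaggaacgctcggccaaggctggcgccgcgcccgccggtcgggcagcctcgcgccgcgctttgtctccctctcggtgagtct
Esrrb: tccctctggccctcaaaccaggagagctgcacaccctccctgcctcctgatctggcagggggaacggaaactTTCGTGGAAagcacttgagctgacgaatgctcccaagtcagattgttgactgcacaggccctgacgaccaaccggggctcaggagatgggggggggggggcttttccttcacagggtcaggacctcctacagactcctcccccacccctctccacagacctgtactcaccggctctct
The match begins 154 bases before the start site in Socs3 and 178 bases before it in Esrrb. No STAT palindrome was in the window of Klf4 or Tfcp2l1, which says only that these letters are not in it.

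Genes of the Nodal and Wnt pathways were read next. Nodal, a TGF-beta ligand that maintains the epiblast, gave 918, 788 and 699.7 in ES cells and 1183 here, 0.36 above the highest array. Lefty1 and Lefty2, secreted inhibitors and targets of Nodal, were the 2 of 20 tested nodal genes called higher, against 0.935% of all genes. No nodal gene was called lower and the list median was -0.07. Lefty1 gave 10869, 11287 and 18113 against 36908, and Lefty2 gave 609, 627 and 913 against 1872. Both were just past the margin, at 1.03 and 1.02. A separate Lefty1 probe set gave 1499, 1665 and 2667 against 5779, and a further one, of the _r type that Affymetrix gives to sets selected with relaxed rules, gave 4799.6, 3437 and 3510.3 against 3222, below the range. With the probe sets averaged, Lefty1 was not past the margin. Lefty1 was also at 49194 in the day 2 E-cadherin-positive cells and at 36270.1 in the day 3 Sox1-positive cells, so its high intensity was not particular to the Sox1-negative sort. Tdgf1 (Cripto), the Nodal coreceptor, gave 567, 451 and 500.2 against 522, within the range.

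Of 21 tested Wnt genes 4 were called higher, against 0.935% of all genes, and none lower, with a median of 0.34. The 4 were the ligand Wnt8a, the receptor Fzd7, the nuclear factor Lef1 and the secreted inhibitor Sfrp2. All but Fzd7 are also among the 7 epiblast genes above. Fzd7 gave 959, 1131 and 1050.0 in ES cells and 2549 here, and its other, dimmer probe set gave 150.5, 84.0 and 110.2 against 173, above the range by less than the margin. Axin2, a feedback target of beta-catenin, gave 537, 346 and 356 against 899, 0.73 above the highest array. Sp5, another direct target, gave 3073, 2494 and 2353 against 2986, within the range. The FGF and ERK list had no called gene among 19 tested, and Fgf4, the main FGF of ES cells, gave 2459.9, 3093 and 3693 against 2032, 0.27 below.

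Markers of later lineages mostly lay within 1 log2 unit of the ES range. Among 28 tested neural progenitor genes 2 were called higher, Egr2 and Nnat, against 0.935% of all genes, and none lower. The list median was 0.15, and in the day 3 Sox1-positive cells it was 2.10. Nnat, an imprinted proteolipid gene of neural tissue, gave 146, 178 and 122 in ES cells, 583 in the Sox1-negative and 3665 in the Sox1-positive cells. Egr2, a zinc finger factor of the hindbrain that growth factors also induce, gave 148, 138 and 178 against 559.6. Pax6, a neural plate factor, gave 169.5, 175 and 158 against 102, below the range by 0.56. Among 21 tested neuronal genes Nefl, a neurofilament chain, was called higher, with 181, 205 and 226 in ES cells and 484 here, and Stmn2, a microtubule regulator of neurons, was called lower, with 893, 1674 and 1222 against 434. Both missed the margin with a pseudocount of 64, and the shares of all genes called higher and lower were 0.935% and 1.39%. Summed intensity of the neural progenitor list was 12037, against 10536.5 to 11437 in ES cells.

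Among 12 tested genes of mesoderm and primitive streak 1, Kdr, was called higher, against 0.935% of all genes. Kdr, the VEGF receptor of early mesoderm and endothelium, gave 102, 78.4 and 66.0 in ES cells and 292 here, but its other probe set gave 192, 98.5 and 87.8 against 149, within the range. Eomes, a T-box factor of the streak, gave 111, 92.6 and 52.1 against 186, 0.66 above the highest array. Brachyury (T) and Mixl1 were not analysed here, and 9 genes of the list did not pass the intensity filter. Among 24 endoderm genes 2 were called lower, the matrix genes Sparc and Lama1. Among 18 genes of surface ectoderm and trophectoderm 2 were called lower, Grhl3 and Esx1, and the share of all genes was 1.39%. Sparc, a matricellular protein, gave 1093, 671 and 742 against 299, and Lama1, a laminin chain, gave 428, 426 and 406 against 195. Grhl3, a grainyhead factor of surface ectoderm, gave 5277, 4884 and 4685 against 1559, and Esx1, a homeobox gene of the placenta, gave 218, 151 and 133 against 32.3. No gene was called higher in either list. Sox17 and Foxa2, defining factors of endoderm, were dim and above every ES array by less than the margin. They gave 122 and 52.3 in the day 3 Sox1-negative cells against 93.8, 70.7 and 85.0 and 47.9, 41.2 and 32.1 in ES cells. No called gene was found among 13 tested neural crest, 10 fibroblast and feeder, and 11 germ cell and two-cell-like genes.

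Most epithelial genes were near their ES levels. Of 26 tested 2 were called higher, Cldn6 and Esrp1, against 0.935% of all genes, and none lower, with a median of 0.10. Esrp1, a splicing regulator of epithelial isoforms, gave 229, 160.5 and 131 in ES cells and 639.6 in the day 3 Sox1-negative cells, and 47.2 in the Sox1-positive cells. Epcam, an epithelial adhesion molecule, gave 2368, 1857 and 1944 against 2007, within the range. The epithelial list median was -0.75 in the Sox1-positive cells, in which Epcam was at 2783 and Cdh1 at 418.

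Most genes of glycolysis lay above the ES arrays. Of 22 listed genes 19 were tested, 2 were called higher, against 0.935% of all genes, and none lower, and the median was 0.63. By some distance 14 lay above every ES array, against 27.4% of all genes. Slc16a3 (Mct4), the lactate exporter, gave 1484, 827 and 1147 in ES cells and 4314 here, a difference of 1.93 ± 0.39 (limma SE). Pgk1, a glycolytic kinase, gave 3102, 2419 and 3316 against 6898. Aldoa (aldolase) gave 8095, 7544 and 9632 against 14210.5, and Ldha (lactate dehydrogenase) gave 7902, 7989 and 9932 against 12627; both lay above the range by less than the margin. Hk2, the inducible hexokinase, gave 1523, 1787 and 1742 against 1342, below the range by 0.18. The hypoxia list had the same median of 0.63 over 17 tested genes, of which 11 lay above every ES array, against the same 27.4%, and none passed the margin. In it, Egln3, an oxygen-sensing prolyl hydroxylase, gave 652, 470.1 and 1504 against 2787, and Bnip3, a mitophagy receptor, gave 255, 193 and 302 against 576. The 2 lists share Slc2a1 and Pdk1.

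Immediate early genes included the largest difference above the range. Of 27 tested genes of the immediate early and heat shock list 3 were called higher, Egr3, Fos and Fosb, against 0.935% of all genes. None was called lower, and the median was 0.29. Egr3, a growth factor-induced zinc finger gene, gave 453, 306 and 324 in ES cells and 2182 here, a difference of 2.56 ± 0.42 (limma SE), and its other probe set gave 20.2, 39.4 and 30.3 against 108. Fos gave 712, 389 and 545 against 1964. Fosb, named after its value was seen, gave 451, 309.8 and 386 against 1125. The ES arrays disagreed on heat shock genes: Hspa1a, the inducible Hsp70, gave 1948, 168 and 244, with 1254 in the day 3 Sox1-negative cells. Without ES 1 the count of this list called higher was 7. Fos was at 4397 in the day 2 E-cadherin-positive and 1189 in the day 3 Sox1-positive cells, so all 3 of these SFEB sorts stood above the ES arrays for it. Of 32 cell cycle genes 1 was called lower, against 1.39% of all genes. It was Ccnd3, a D-type cyclin, which gave 2515, 2194 and 2415 against 991, while its other probe sets did not pass the margin.

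**Figure D3:**
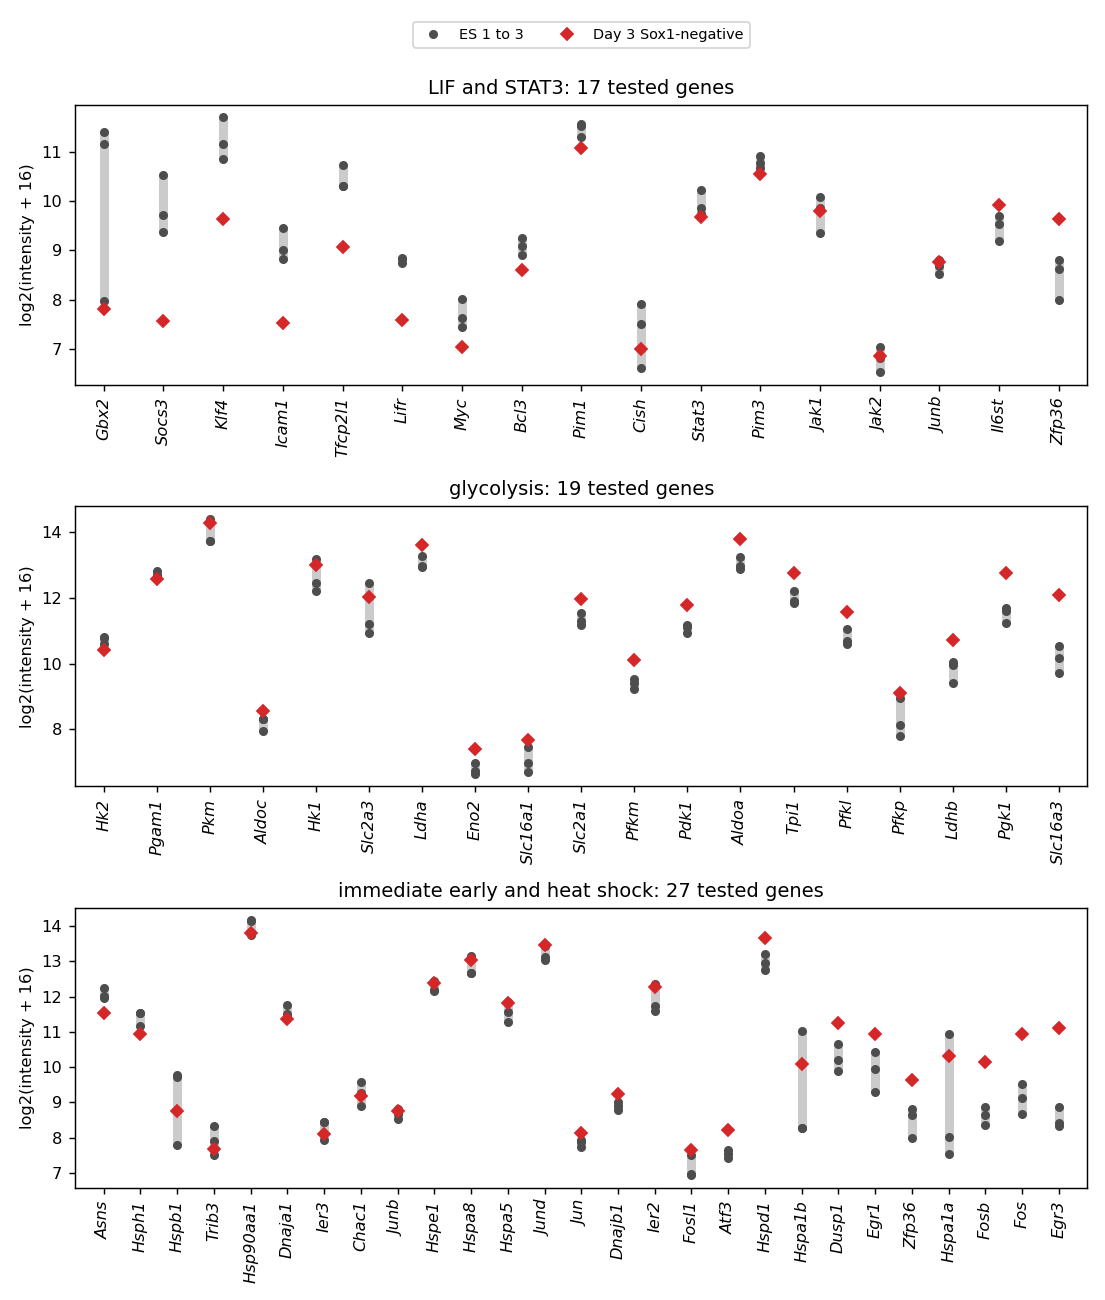
Genes of the LIF and STAT3, glycolysis, and immediate early and heat shock lists are ordered by their difference from ES cells, with log2(intensity + 16) on the y axis. Grey dots and bars are the 3 ES arrays and their range and red diamonds the day 3 Sox1-negative sample; 5 genes of the upper panel lie at least 1 unit below the range, and 2 and 3 genes of the other panels at least 1 unit above it.

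The 15 largest differences above the range included Egr3, Wnt8a and Mt1 and several genes of little-studied function. Mt1, a metallothionein that binds zinc, gave 1585, 1369 and 786 in ES cells and 6989 here, a difference of 2.53 ± 0.42 (limma SE); a second probe set, of the _r type, gave 2113, 1974 and 1383 against 2481, above the range by less. Trh, the precursor of thyrotropin-releasing hormone, gave 1408, 963 and 1509 against 5508. Cds1, a phospholipid synthesis enzyme, gave 229, 169 and 243 against 1046, and its other probe set gave 206, 140.2 and 222 against 702. In Cds1 both probe sets were thus more than 1 unit above the range. Nrcam, a neural cell adhesion molecule, was near the floor in ES cells at 18.3, 13.3 and 10.7 and gave 139.6 here and 404 in the Sox1-positive cells. Lratd2 gave 93.8, 103 and 133 against 673, and Hrh3, a histamine receptor, gave 76.8, 69.9 and 37.8 against 332. Like Nrcam, the genes Egr3, Trh and Lratd2 were higher still in the Sox1-positive cells, at 2666, 7288 and 1042. Their rise was thus not particular to the Sox1-negative sort. The uncharacterised 1700129C05Rik gave 148, 117 and 109.6 against 778 by a probe set of the _i type, built from fewer probes. Its other tested probe set gave 198, 96.5 and 48.7 against 203, only 0.03 above the range. The noncoding 2900060B14Rik gave 1999, 1149 and 638 against 6079.7. By the probe sets used in the counts, both genes were also high in the day 2 E-cadherin-positive cells, at 726 and 4876. They were as high in the day 2 E-cadherin-negative cells, at 892 and 5219. At day 1 they were at 106 and 4177. In the day 3 Sox1-positive cells they were near ES levels, at 136 and 1809.

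Cped1 and Nudt22 had their highest intensity of the 10 samples here, as did Mt1, Cds1, Hrh3, Kcnt1, Mir670hg and 2900060B14Rik among the same 15 genes. Cped1 gave 103, 95.9 and 100.4 in ES cells, 595 in the day 3 Sox1-negative cells, 115 in the day 2 E-cadherin-positive and 122 in the Sox1-positive cells. Nudt22 gave 687, 485 and 396 against 2853, with 660.0 and 679.8 in the same 2 samples, 1268 in the day 2 E-cadherin-negative and 1622 in the day 5 Sox1-positive cells, but its other probe set gave 851, 852 and 756 against 599, below the range, so the gene's direction depended on the probe set. Kcnt1, a sodium-activated potassium channel, gave 61.1, 97.2 and 71.2 against 459, and Mir670hg, a microRNA host gene, gave 170.2, 99.0 and 101 against 661. Osr2, a zinc finger factor, gave 141, 68.6 and 38.4 against 423 and was as high in the day 2 E-cadherin-positive cells, at 497. A high value in 1 array of 1 sample, as for Cped1 and Nudt22, has no replicate check. The other probe sets of Cped1 were under the intensity filter.

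Below the range, Mras had the largest difference. Mras, a Ras-related GTPase, gave 944, 1329 and 1408 in ES 1, 2 and 3 and 55.0 in the day 3 Sox1-negative cells, a difference of -4.11 ± 0.34 (limma SE, adjusted p = 0.14). A second probe set gave 294, 446 and 367 against 27.8, and another gave 164, 138 and 189 against 90.7. It was at 72.9 at day 1, 51.4 in the day 2 E-cadherin-positive and 40.9 in the Sox1-positive cells, so Mras was low in each SFEB sample named. Eprn, a noncoding transcript, gave 1634, 2615 and 1781 against 114. Emp1, a membrane protein of epithelia, gave 1097, 1199.9 and 1395 against 109, with an adjusted p of 0.092. Ahnak, a giant scaffold protein, gave 586, 1652 and 1356 against 94.6, but a second probe set gave 40.4, 151 and 191 against 179.7, inside the range. Fbxo2, a ubiquitin ligase subunit that binds glycoproteins, gave 939, 702 and 749 against 65.0, and Irak3, an inhibitor of Toll-like receptor signalling, gave 1266, 2059.9 and 1831 against 162. Emp1, Fbxo2 and Irak3 were each below every ES array in the Sox1-positive cells too, at 168, 33.4 and 78.5.

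Hs3st3b1, a heparan sulfate sulfotransferase, separated the 2 sorts of day 3. It gave 337, 441 and 435 in ES cells, 30.5 in the Sox1-negative and 1631 in the Sox1-positive cells. Pramel6, of a family expressed in the early embryo, gave 374, 141 and 129 against 13.5. Slc30a2, a zinc transporter, gave 946, 393 and 396 against 65.9, Cnpy1 gave 472, 959 and 1528 against 73.2 and Grtp1 gave 197, 363 and 823 against 30.4. For Cnpy1 and Grtp1 the ES arrays themselves spread widely. Bbs12, a chaperonin-like gene of the cilium base, gave 252, 397 and 414 against 32.9, and Gm30567 gave 792, 541 and 607 against 75.6. Wdr24, a subunit of an mTORC1 regulator, gave 1409.8, 2164 and 4450.4 against 285, and Rpl38, a ribosomal protein gene, gave 266, 256 and 146 in the ES arrays, with a difference of -2.77. Their probe sets carry the suffixes _r and _i, which mark sets built with relaxed rules or from fewer probes, and both other probe sets of Rpl38 were under the filter. Of the 180 genes called lower, 96 were in the day 3 Sox1-negative cells under the intensity used as the filter, and of the 121 called higher, 29 had all ES arrays under it, so the size of those differences rests on dim values.

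**Figure D4:**
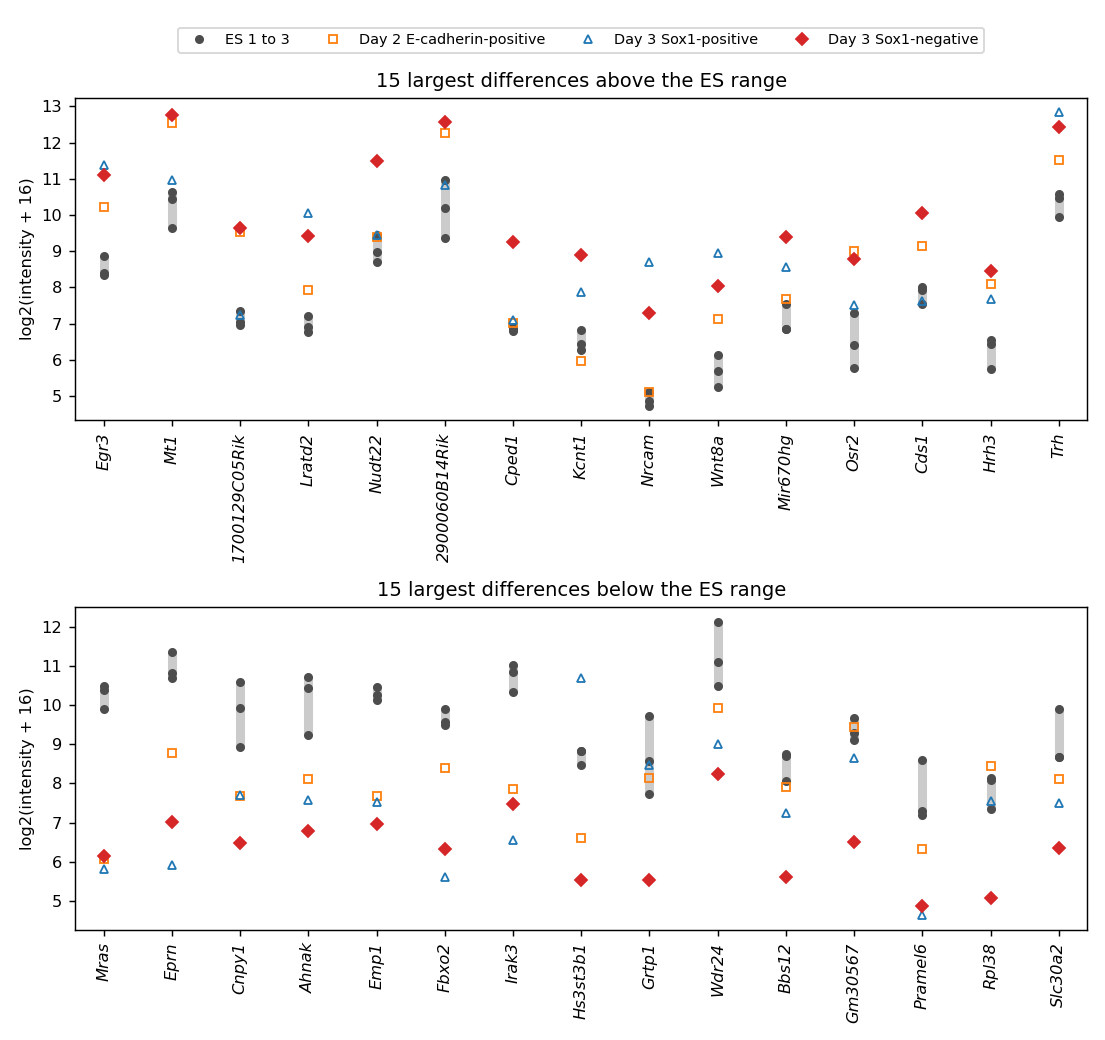
The 15 largest differences above the ES range (upper panel) and below it (lower panel) are ordered by size, with log2(intensity + 16) on the y axis. Grey dots and bars are the 3 ES arrays and their range, red diamonds the day 3 Sox1-negative sample, orange squares the day 2 E-cadherin-positive sample and blue triangles the day 3 Sox1-positive sample; Hs3st3b1 is below the ES range in the Sox1-negative and above it in the Sox1-positive sample.

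Where a called gene had other tested probe sets, these did not always point the same way. Of 31 such genes called higher, 25 had every other probe set on the same side of the ES mean, and of 43 called lower, 27 had.

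Set beside the other samples, all compared with the same 3 ES arrays, the day 3 Sox1-negative cells had a naive list median below that of ES cells and a core median close to it. The naive list median was -0.44 at day 1, -0.91 in the day 2 E-cadherin-positive cells, -1.03 here and -3.11 in the day 3 Sox1-positive cells. The core pluripotency median was -0.07 in the day 2 E-cadherin-positive cells, -0.12 here and -1.24 in the Sox1-positive cells. The epiblast median was 0.41, 0.52, 0.87 and -0.16 in the same order of day 1, day 2 E-cadherin-positive, day 3 Sox1-negative and day 3 Sox1-positive cells. The neural progenitor median was 0.22 in the day 2 E-cadherin-positive cells, 0.15 here and 1.64 in the day 2 E-cadherin-negative cells. Of the 10 samples the day 3 Sox1-negative cells had the highest epiblast median. Over the 3 ES arrays the medians themselves ran from -0.35 to 0.13 for the epiblast list and from -0.21 to 0.25 for the naive list. ES 1 had the lowest epiblast and the highest naive median. Single naive genes did not all follow, since Klf5 and Gbx2 were lowest in ES 1. Each SFEB group has 1 sample, and these samples share their controls, so no difference between them was tested.

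**Figure D5:**
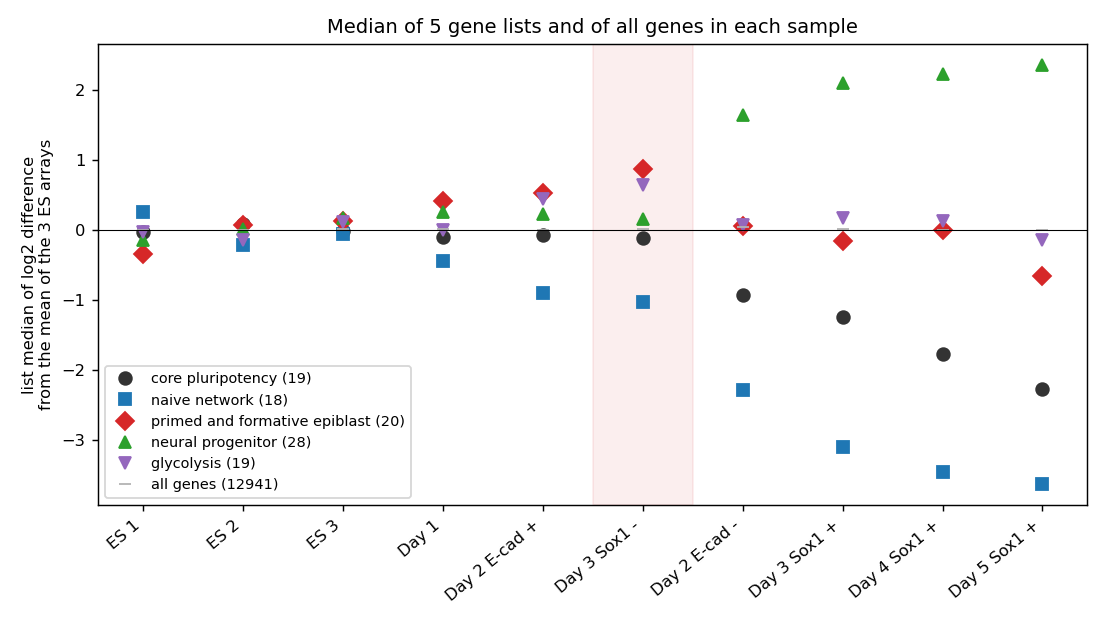
For each of the 10 samples on the x axis, the y axis gives the median over a gene list of the log2 difference from the mean of the 3 ES arrays; the number of tested genes is in the key and the day 3 Sox1-negative sample is shaded. Samples are arranged by sort and not in order of time. In the shaded sample the naive median is -1.03, the epiblast median 0.87, the core pluripotency median -0.12 and the neural progenitor median 0.15.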

How the data were processed

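The deposited values of U74Av2, U74Bv2 and U74Cv2 were linear intensities that the authors had already scaled: the mean of each array without the lowest and highest 2% was nearly the same, as tested on the files. No source used here names the array software or its background correction. No detection calls or values of single probes were used. Of 36899 probe sets, 198 controls were left out, 29131 named 1 gene, 724 several and 6846 none in GEO's platform annotation, with symbols updated through the Entrez ID for 29044. Values were taken as log2(intensity + 16). Probe sets with a mean intensity over the 10 arrays under the 30th percentile of their chip were left out, and each gene was read from its probe set with the highest mean log2 value, which left 25690 probe sets and 12941 genes. The margin of 1 log2 unit beyond the ES range is a description. The test was limma 3.58.1 in R 4.3.3 (lmFit and eBayes, 3 ES arrays against 1, Benjamini-Hochberg adjustment over all probe sets at 0.05). The scripts were tested on simulated data. The number of arrays limits the precision. Named genes were all of the naive, epiblast, core and methylation lists past the margin, the 15 largest differences each way and the 2 largest each way in every other list; further list members are given where the text counts them. The comparison, the lists and the rule were chosen with earlier results of these data known. Promoters came from a RefSeq table (GRCm38.p6), of which the 250 upstream bases were used.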

Additional observations from a re-analysis of the deposited data

Results flagged for a closer look

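Of the genes named above, 3 lay at least 1 log2 unit outside the ES range on opposite sides in the 2 sorts of day 3. Cldn6 differed from the ES mean by 1.71 log2 units in the Sox1-negative and by -3.01 in the Sox1-positive sample. Esrp1 differed by 1.82 and -1.55. Hs3st3b1 differed by -3.17 in the Sox1-negative and by 1.98 in the Sox1-positive sample. With 1 sample in each sort, the difference between the sorts was not tested.

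Probe sets that name no gene or several were in no count of genes above. Of 4562 such probe sets past the intensity filter, 65 lay at least 1 log2 unit above the ES range in the day 3 Sox1-negative cells, which is 1.42%, and 123 lay as far below it, which is 2.70%.

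Of 198 control probe sets, 1 lay above the range by the margin. It is the Cre control probe set AFFX-CreX-3_st on U74Cv2, and it gave 125, 75.5 and 123 in the ES arrays and 535 in the day 3 Sox1-negative cells. None of the other controls passed the margin on either side, and this 1 value does not show that a spiked-in transcript differed.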

How the results depend on the processing

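Of 61 named genes past the margin, 45 kept their call in every alternative that gave a value for the gene, 9 or 10 each. None changed direction, and 16 lost the call in some, among them Esrrb, Zfp42 and Fbxo15 with quantile normalisation. Leaving out an ES array only narrows the range, and a pseudocount of 1 only widens a difference, so neither could end a call of the same probe set. A changed filter leaves the values of a probe set as they were. The count of 45 thus rests mainly on quantile normalisation, scaling to the 75th percentile, the pseudocount of 64 and the averaging of probe sets. The 121 genes higher and 180 lower became 79 and 107 with a pseudocount of 64, and 48 and 79 with the filter at the 60th percentile; without a filter 198 were higher. Leaving out 1 ES array gave 181 to 258 higher and 237 to 366 lower, the most without ES 1. A margin of 0 gave 3545 and 3376, and a margin of 2 gave 10 and 23. Quantile normalisation gave 106 and 202, which moved the share of higher among the calls by less than 10 percentage points. In limma, leaving out 1 ES array gave 0 to 41 probe sets higher and 0 to 75 lower, with calls only without ES 1; the lower count was 3 with a pseudocount of 64, 7 with the filter at the 60th percentile, 10 with a mean-variance trend and 3 with adjustment within each chip, and 0 were higher in those 4. The cause of these changes was not tested. Under the stricter filter the fit also held fewer probe sets, 14681 against 25690. Of 319 list medians recomputed, 267 moved by less than 1 SD of the ES arrays. None of those of the naive and epiblast lists moved further, with ranges of -1.19 to -0.84 and 0.69 to 0.94. The SD of the ES medians was wide for these 2 lists, at 0.24 and 0.26. It was 0.06 for core pluripotency and 0.02 for Wnt, so the lists cannot be ranked by this measure. Dim probe sets limit the rest, since no detection calls were used. No paired analysis was possible because the day 3 Sox1-negative group has 1 sample per chip.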

Other observations

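Some genes, chosen after their values were seen, were low in ES 1 and in the day 3 Sox1-negative cells and high in ES 2 and ES 3, so they did not pass the margin. Acta2, a smooth muscle actin, gave 216, 2489.6 and 1760.4 in ES 1, 2 and 3 and 124 in the day 3 Sox1-negative cells. Tagln, an actin-binding protein of smooth muscle, gave 232, 2445 and 1979 against 279. Col4a2, a basement membrane collagen, gave 220.5, 1399 and 1711 against 228, and Igf2, a growth factor expressed from the paternal allele, gave 362, 2432 and 2496 against 443. In all 4 genes ES 1 was nearer to the day 3 Sox1-negative sample than to ES 2 or ES 3.

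The inducible Hsp70 genes went the other way between the ES arrays. Hspa1a gave 1948, 168 and 244 and Hspa1b 2063, 292 and 295 in ES 1, 2 and 3, against 1254 and 1064 in the day 3 Sox1-negative cells. They were at 299 and 441 at day 1, and at 3521 and 1568 in the day 3 Sox1-positive cells.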
